A study of Mus musculus with 8 samples.

Results

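The erythropoietin receptor pathway was followed in whole blood through 9 genes: the receptor Epor, its kinase Jak2, the transcription factors Stat5a and Stat5b, and the target genes Cish, Socs2, Socs3, Pim1 and Podxl. Every probe set whose only gene in the platform annotation was 1 of these 9 was taken, with no use of its values. This gave 21 of the 34958 probe sets that name a single gene, on an array of 45101 probe sets. Blood was taken on Day 7 from 4 female C57BL/6J mice restrained in tubes for 6 h each day (RST, "Stress" in the sample labels). The 4 control mice ("NoStress") were not restrained and had no food or water during those hours. The labels give an age of 6 to 8 weeks, which the methods state for the purchase of the mice, before acclimation. The RNA of each mouse (30 ng, amplified) was hybridized to its own Affymetrix mouse genome array.

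Erythropoietin, a kidney hormone, binds its receptor on erythroid progenitors and activates JAK2, a tyrosine kinase that is attached to the receptor. JAK2 phosphorylates STAT5A and STAT5B, which then enter the nucleus and switch on genes for survival and growth together with genes whose products shut the pathway down. The receptor is most abundant on progenitors in marrow and spleen and is lost as red cells mature. JAK2 and STAT5 also serve other cytokine receptors, so leukocytes and platelets carry them as well.

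STAT5 binds the palindrome TTCNNNGAA, which reads the same on both strands. RefSeq windows of 300 bases (250 before and 50 after a transcript start, GRCm38.p6) were at hand for 7 of the 9 genes, all but Socs2 and Podxl. The palindrome was found in those of Cish and Socs3 and not in those of Epor, Jak2, Stat5a, Stat5b and Pim1. All windows of Stat5a and Stat5b lay inside the annotated spans of these genes, so the bases before their annotated starts were not searched. Of all 32851 windows, 8.30% held at least 1 match and 0.457% held at least 2, as that of Cish did. These stretches are shown because they carry the palindrome (in capitals) in the feedback genes described next.
Cish, chr9:107296589-107296678, plus strand: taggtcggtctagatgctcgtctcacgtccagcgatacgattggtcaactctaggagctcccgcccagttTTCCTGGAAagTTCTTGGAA
Socs3, chr11:117969502-117969530, minus strand: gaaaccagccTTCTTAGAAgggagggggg
The Cish matches begin at positions 1 and 12 counted from the gene's first base. The Socs3 match begins at position −154 from the transcript start of its window, which lies inside the annotated span of that gene. Such a match is a run of letters and does not show that STAT5 was bound in these mice.

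The arrays did not share one distribution. Tested were the 25084 probe sets that exceeded the array median in 2 or more mice of either group, and their median was 4.31 in RST mouse 4 and 4.82 to 5.10 in the other 7 mice. RST mouse 4 had the lowest value of all 8 mice in 41.5% of these probe sets. The median log2 difference, RST minus control, was −0.20, so differences of the 9 genes at their brightest probe sets are also given after every array was centred on the median of its tested probe sets. In limma, 0 probe sets (0%) passed an adjusted p under 0.05 with a fold change above 1.5. The same limits applied to the p before adjustment, called the nominal threshold here, were passed by 724 probe sets (2.89%) that were higher and 2613 (10.4%) that were lower in RST mice. Of these, 78.3% were lower, against 52.7% with quantile normalization, 33.4% with centring, 89.0% when arrays were shifted by their control probe sets and 53.2% without RST mouse 4. A trended and robust prior in limma let 35 probe sets pass after adjustment.

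Of the 21 probe sets, 14 passed the filter and represented 8 of the 9 genes, all but Epor. None of the 14 passed the adjusted threshold (0% of all tested probe sets did), and none passed the nominal one, where 2.89% of all tested probe sets were higher and 10.4% lower. With the trended and robust prior none of the 14 passed the nominal threshold either. RST and control values overlapped for all 21. Among the tested probe sets as a whole, 2.23% lay entirely higher and 5.76% entirely lower in RST mice. A higher mean in RST mice was found for 8 of the 14 and a lower mean for 6, and their median difference was 0.080 against −0.20 for all tested probe sets. The dimmer Pim1 probe set passed the filter through RST mice alone, and the dimmest tested Socs2 probe set through control mice alone. The filter thus favoured the sign that each showed. All p-values rest on 4 mice per group, and intervals are given so that differences too small or too variable to pass can be judged by size.

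**Figure D1:**
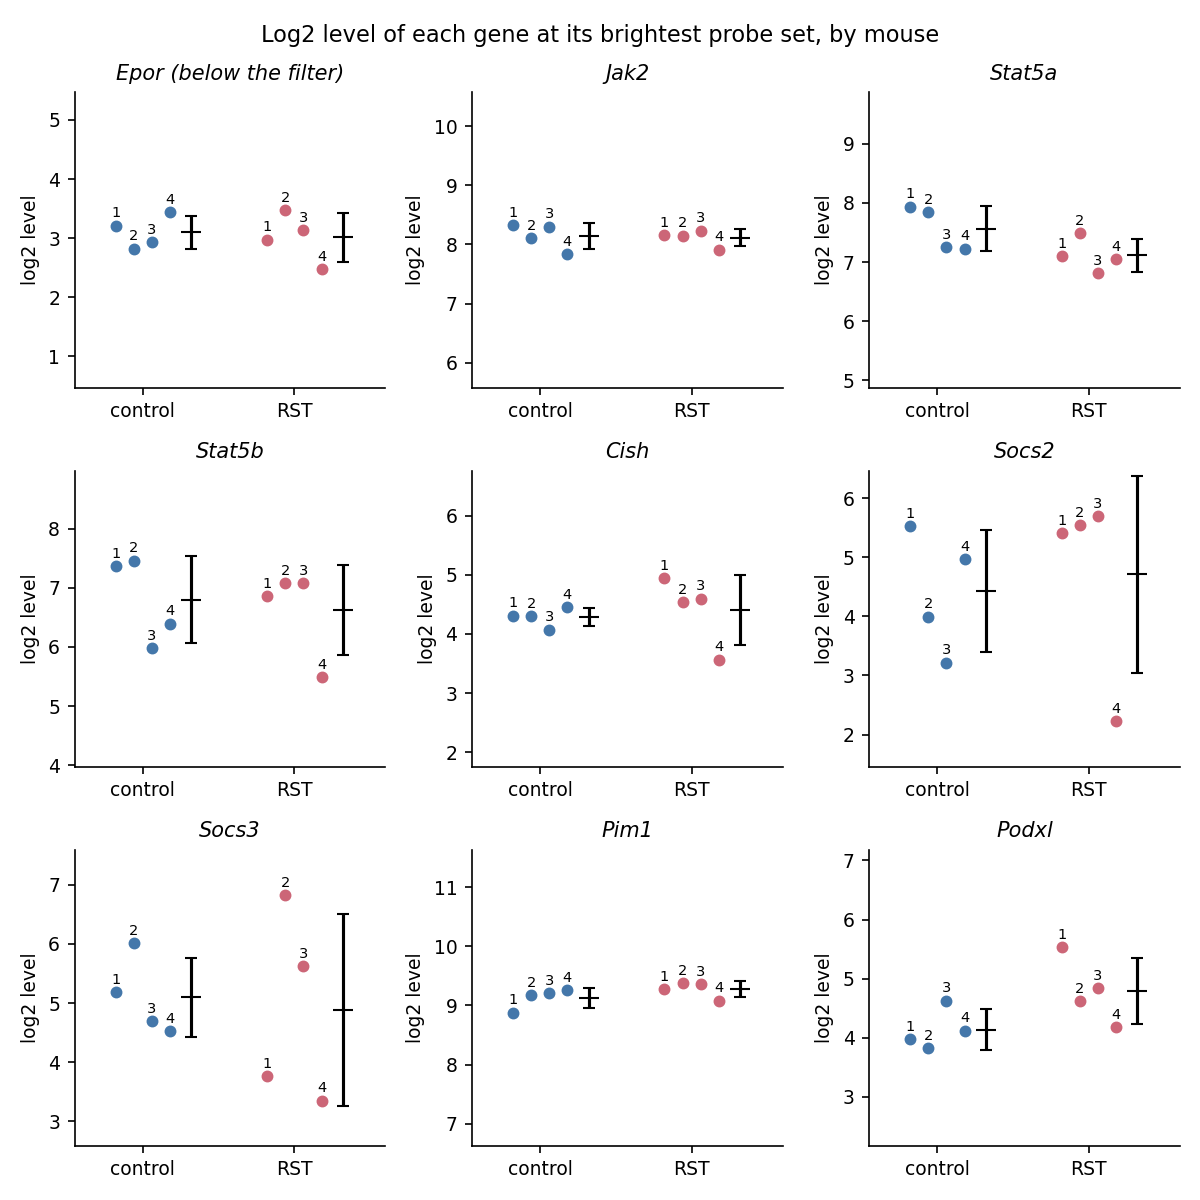
Log2 level (vertical axis) of each of the 9 genes at its brightest probe set in 4 control (blue) and 4 RST mice (red), numbered by mouse, with black bars for mean ± SD. All panels span the same number of log2 units. RST mouse 4 is the lowest of the RST mice for 8 of the genes, all but Stat5a, and no gene separates the groups.

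Gene positions below are those of GRCm38.p6. Epor, the receptor itself, was dim on these arrays. Its only probe set (gene at chr9:21958897-21963576) exceeded the median of the array in 2 of the 8 mice, control mouse 4 and RST mouse 2, and did not pass the filter. Control mice 1 to 4 had log2 levels of 3.21, 2.82, 2.93 and 3.44, and RST mice 1 to 4 had 2.98, 3.47, 3.14 and 2.47. Control and RST mice were intermixed, with an RST mouse at each end. The difference was −0.086 (standard error 0.25, 95% interval −0.64 to 0.47; two-sided exact permutation p = 0.77), from a limma fit of all probe sets. It was −0.13 after quantile normalization and −0.22 when arrays were shifted by their control probe sets. It became 0.18 after centring and 0.095 without RST mouse 4, so its direction was not settled. In bulk blood, fewer cells that make a transcript and less transcript per cell cannot be told apart, which holds for every value given here.

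Jak2, which encodes the kinase, exceeded the array median in all mice, and on the deposited scale its brightest probe set had the smallest difference of the 9 genes. Its brightest probe set (gene at chr19:29251803-29313095) was at 8.32, 8.11, 8.30 and 7.84 in control mice 1 to 4, and RST mice 1 to 4 were at 8.16, 8.15, 8.23 and 7.91. All RST values fell within the range of the control mice. The difference of −0.027 (standard error 0.24, 95% interval −0.56 to 0.51) excluded a 1.5-fold change in either direction on the scale as deposited (limma adjusted p = 0.97; two-sided exact permutation p = 0.80). After centring it was 0.24, larger than that of Socs3, Stat5b or Epor on the same scale.
The second Jak2 probe set behaved differently. It was at 6.26, 5.85, 5.55 and 5.80 in control mice 1 to 4, and RST mice 1 to 4 were at 6.03, 6.93, 6.24 and 5.75, a difference of 0.37 (standard error 0.31, limma adjusted p = 0.58). Only RST mouse 2 exceeded every control mouse. After centring the 4 RST mice lay above the 4 control mice, at a difference of 0.64, as 6.21% of all tested probe sets then did. The exact permutation test gave its smallest possible two-sided p of 0.029 on those centred values and 0.31 on the deposited ones.

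Stat5a and Stat5b, the paralogs that carry the signal, stand head to head on chromosome 11 with 346 bases between their annotated spans (Stat5b at chr11:100780731-100859004, Stat5a at chr11:100859351-100885169). Each had 1 probe set past the filter and 1 that exceeded the array median in no mouse, and that of Stat5a had a difference of 0.38, opposite in sign to the brighter one. Stat5a was the only gene whose 4 RST mice all lay below the control mean at the brightest probe set. Its log2 levels were 7.94, 7.84, 7.26 and 7.22 in control mice 1 to 4, and RST mice 1 to 4 were at 7.10, 7.49, 6.82 and 7.05, with RST mouse 2 alone within the control range. The difference was −0.45, or 1.37-fold lower (standard error 0.28, 95% interval −1.07 to 0.16), and lay within the variation among mice (limma adjusted p = 0.47; two-sided exact permutation p = 0.14). It shrank to −0.19 after centring. With array weights it was −0.62, with an unadjusted p of 0.035 and an adjusted p of 0.19 in limma. In that fit 4091 of all 25084 tested probe sets were lower past the nominal threshold.
Stat5b was at 7.37, 7.46, 5.98 and 6.39 in control mice 1 to 4, and RST mice 1 to 4 were at 6.86, 7.08, 7.08 and 5.49. Control mice 1 and 2 were higher than all others, and RST mouse 4 was the lowest of the 8. The difference was −0.17 (standard error 0.44, 95% interval −1.14 to 0.80; limma adjusted p = 0.87). It was 0.091 after centring, 0.20 without RST mouse 4 and 0.44 without control mice 1 and 2, so no direction can be given.

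Cish encodes CIS, a STAT5-induced protein that blocks STAT5 docking at the receptor, and it had 1 probe set (gene at chr9:107296659-107302784). Its levels were 4.31, 4.30, 4.07 and 4.45 in control mice 1 to 4, and RST mice 1 to 4 were at 4.94, 4.54, 4.59 and 3.57. RST mice 1, 2 and 3 each exceeded all control mice, whereas RST mouse 4 lay below all of them. The mean difference was therefore small, at 0.13 (standard error 0.31, 95% interval −0.56 to 0.82; limma adjusted p = 0.87; two-sided exact permutation p = 0.71). It was 0.41 without RST mouse 4 and −0.050 without RST mouse 1. Once arrays were centred it was 0.39, with RST mouse 4 at −0.74 among control values of −0.82 to −0.44 (two-sided exact permutation p = 0.057).

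Socs2, which encodes a ubiquitin ligase adaptor that dampens growth hormone and other JAK2-STAT5 signals, had 6 probe sets, 3 of them past the filter. The brightest (gene at chr10:95383903-95417321) read 5.53, 4.00, 3.21 and 4.96 in control mice 1 to 4, and RST mice 1 to 4 were at 5.40, 5.54, 5.69 and 2.22. As for Cish, RST mouse 4 was the lowest of all 8, while RST mice 1 to 3 lay close together near the top of the control range. The control mice themselves spanned more than 2 log2 units. The difference was 0.29 (standard error 0.74, 95% interval −1.33 to 1.91; limma adjusted p = 0.87), 0.55 after centring, and 1.12, or 2.17-fold, without RST mouse 4 (adjusted p = 0.43). The suffix of this probe set (s_at) marks probes shared by more than 1 transcript. The other tested probe sets of Socs2 had differences of −0.19 and −0.38, opposite in sign to the brightest, and their values in RST mouse 4 were 3.73 and 2.83, inside the range of the other RST mice. That at −0.38 was dim and exceeded the array median only in control mice 3 and 4. It passed the filter through the control mice alone, which favoured a lower RST mean.

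Socs3 encodes an inhibitor of JAK2 activity that many cytokines induce. Its values scattered widely among the RST mice at all 3 of its probe sets. At the brightest (gene at chr11:117966079-117970336), control mice 1 to 4 were at 5.18, 6.01, 4.69 and 4.52 and RST mice 1 to 4 at 3.76, 6.83, 5.62 and 3.35. The RST mice held both the highest and the lowest values. The SD was 1.62 (n = 4) in RST and 0.67 (n = 4) in control mice, and the difference was −0.21 (standard error 0.67, 95% interval −1.68 to 1.26; limma adjusted p = 0.90). After centring it was 0.053. The second probe set ordered the RST mice in the same way, from 3.82 in mouse 4 to 6.16 in mouse 2, with a difference of 0.032. The third did not, with RST mouse 4 at 5.24, RST mouse 2 at 5.63 and RST mouse 1 lowest at 2.65. The first pair carry the suffix x_at, given to probe sets whose probes may bind unrelated transcripts.
Among the RST mice the neutrophil sum was also highest in mouse 2. The summed linear level of 10 neutrophil markers was 4192 to 11840 in RST and 7746 to 13640 in control mice. It was lowest of all in RST mouse 1, and control mouse 1 had the highest value. The part of neutrophils in the Socs3 values was not tested.

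**Figure D2:**
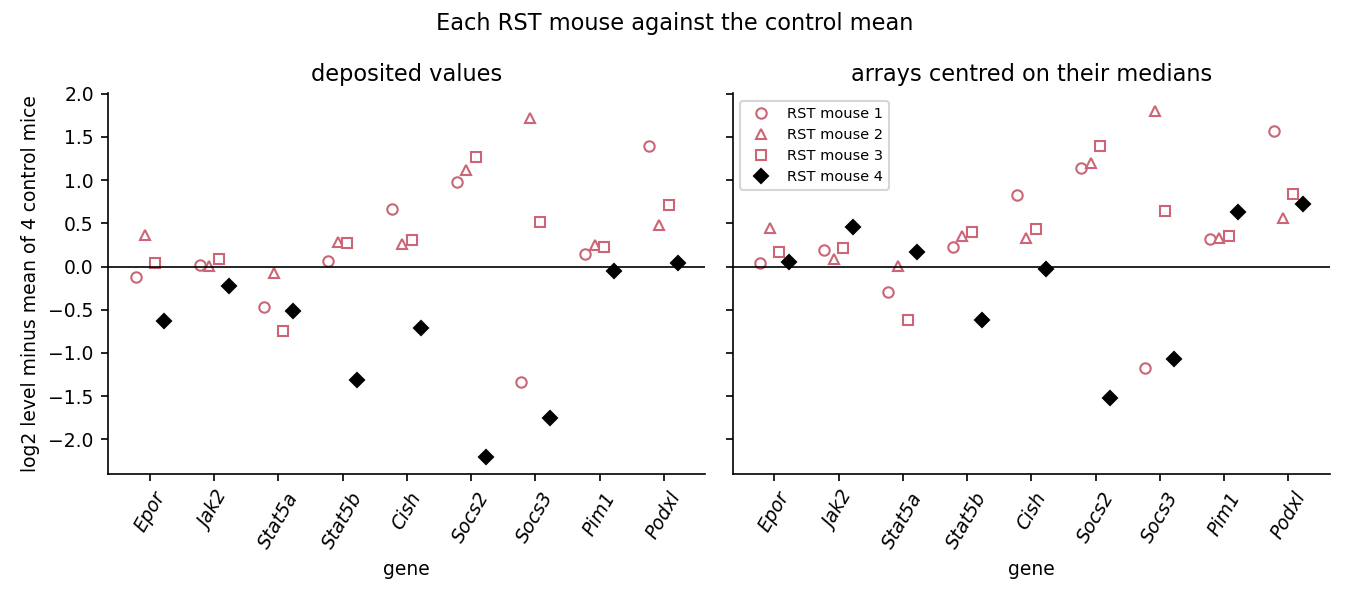
Log2 level of each RST mouse minus the mean of the 4 control mice at the brightest probe set of each gene, from the deposited values (left) and after centring each array on the median of its tested probe sets (right). RST mouse 4 (black) lies at −2.20 for Socs2, where RST mice 1 to 3 lie between 0.98 and 1.27, and it remains lowest for Socs2 after centring.

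Pim1 encodes a serine/threonine survival kinase that STAT5 induces. Its brightest probe set (gene at chr17:29490785-29496111) was steady, at 8.88, 9.18, 9.20 and 9.26 in control mice 1 to 4, and RST mice 1 to 4 were at 9.28, 9.38, 9.35 and 9.08. RST mice 1 to 3 lay narrowly above all control mice, and RST mouse 4 lay within them. The difference was 0.14 (standard error 0.24, 95% interval −0.38 to 0.66; limma adjusted p = 0.80; two-sided exact permutation p = 0.29). It was 0.15 after quantile normalization and 0.013 when arrays were shifted by their control probe sets. Centring raised it to 0.41 and parted the groups (two-sided exact permutation p = 0.029), as for 6.21% of probe sets. RST mouse 4, whose array had the lowest median, then had the highest Pim1 value of the 8.
The second Pim1 probe set was dim, above the array median in 3 of 8 mice. All of these were RST mice, so it passed the filter through that group alone, which favoured a higher RST mean. Control mice 1 to 4 were at 2.33, 2.76, 2.96 and 2.27, and RST mice 1 to 4 at 3.48, 2.48, 3.51 and 3.25. RST mice 1, 3 and 4 were the 3 highest of the 8. The difference was 0.60, or 1.52-fold (standard error 0.31, unadjusted p = 0.077 and adjusted p = 0.40 in limma), and 0.86 after centring.

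Podxl encodes podocalyxin, a sialomucin of vessels, platelets and progenitors that erythropoietin induces in erythroid cells. It showed the largest difference of the 9 genes at their brightest probe sets. At the brightest probe set (gene at chr6:31519493-31563937), control mice 1 to 4 were at 3.98, 3.82, 4.63 and 4.12 and RST mice 1 to 4 at 5.53, 4.62, 4.84 and 4.18. All 4 RST mice were above the control mean of 4.14, RST mice 1 and 3 above every control mouse, and RST mouse 4 was above 3 of the 4. The difference was 0.66, or 1.58-fold (standard error 0.33, 95% interval −0.064 to 1.38), and it did not pass (unadjusted p = 0.070 and adjusted p = 0.39 in limma; two-sided exact permutation p = 0.086). Centring gave 0.92 (unadjusted p = 0.012 and adjusted p = 0.26 in limma), quantile normalization 0.83 (adjusted p = 0.27) and the omission of RST mouse 4 0.86 (adjusted p = 0.37). It was 0.41 without RST mouse 1. The second Podxl probe set was below the array median in every mouse, with a difference of 0.27.

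After centring, 3 of the 14 tested probe sets (the dimmer ones of Jak2 and Pim1, and Podxl) were higher in RST mice past the nominal threshold, where 8.68% of all tested probe sets were. The Pim1 probe set among them had passed the filter through the RST mice alone. Quantile normalization left Jak2 and Podxl, where 1414 of all 25084 tested probe sets were higher past the threshold. Leaving out RST mouse 4 gave Socs2 and Podxl, where 1290 of the 25084 were. None passed after adjustment in any of these fits.

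**Figure D3:**
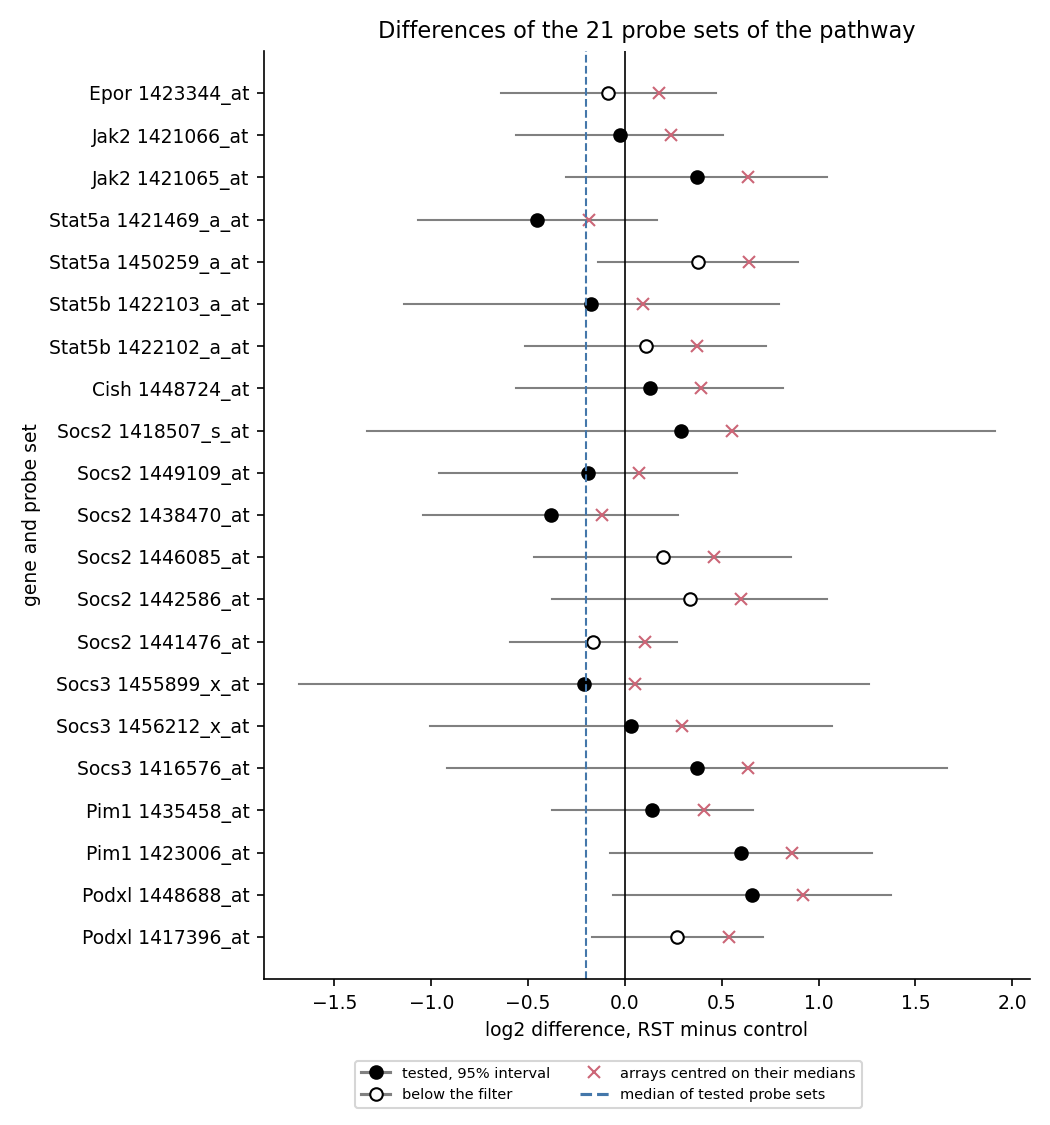
Log2 difference (RST minus control) of the 21 probe sets with 95% intervals from limma; filled points were tested, open points were below the filter, red crosses are differences after centring each array, and the dashed line is the median of all tested probe sets at −0.20. Each interval includes 0, and the intervals of Socs2 and Socs3 at their brightest probe sets are the widest.

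The remaining genes of the pathway were taken from 6 lists that together named 121 genes, of which 95 had a tested probe set with a single gene name. The brightest tested probe set stood for each gene. None of the 95 passed the adjusted threshold in limma. Over all 11762 genes, 2.80% were higher and 12.8% lower past the nominal threshold, 32.4% had a higher mean, and the median difference was −0.24. The RST mice lay entirely above the control mice for 2.37% of all genes and entirely below for 6.57%. After centring, 8.59% were higher and 5.48% lower past the nominal threshold. Of the list genes past it, Stat4, Tec, Plcg2, Vav1, Map2k2, Snx9, Bcl2l1 and Tnfrsf13c still passed after centring, while Il7r, Tyk2, Stat2, Plcg1, Ptprc, Sh2b1, Ptpn6 and Egr1 did not. Foxo3, Crkl, Dusp4, Elob, Dusp1 and Fos, all higher in RST mice, passed it at their brightest tested probe sets on the centred scale alone. Of these, Dusp4 was dim and exceeded the array median only in RST mice 1 and 4. It passed the filter through the RST mice alone, which favoured a higher RST mean. Relative to the median of all genes the lists lay at −0.11 (ligands), 0.073 (receptors), −0.57 (other JAK and STAT genes), −0.31 (adaptors and kinases), −0.086 (negative regulators) and −0.059 (targets), so the sign of the receptors turned. The receptors, negative regulators and targets lay within 0.1 of the median of all genes.
Few ligands passed the filter. Of 11 listed, Il3, Csf2, Csf3, Il5, Prl and Gh were below the filter, and Epo, Thpo and Erfe were not analysed here. Only Igf1 (−0.51, standard error 0.41) and Kitl, the ligand of the progenitor receptor KIT (−0.20, standard error 0.38), were tested. The 3 tested probe sets of Kitl differed in sign, and the value given turned to 0.062 after centring. Means were higher for 2 and lower for 10 of the 12 receptors tested, and their median was −0.17. Il7r, the interleukin-7 receptor chain of lymphocytes, was below every control mouse in all 4 RST mice (−0.70, standard error 0.24, limma adjusted p = 0.32). It was the 1 receptor past the nominal threshold, which it missed at −0.44 after centring. Il5ra, which eosinophils carry, was at −0.58 (standard error 0.29).
The relatives of JAK2 and STAT5 had mostly lower means. Of 7 other JAK and STAT genes tested, 6 had a lower mean, 3 of them past the nominal threshold, and the median was −0.81. Tyk2, a kinase of interferon and interleukin-12 receptors, was at −0.81 (standard error 0.31, limma adjusted p = 0.33), and at −0.55 after centring. Stat4, a factor of T and NK cells, was at −1.12 (standard error 0.47), and Stat2, a factor of the interferon response, at −0.91 (standard error 0.39). Whether they differed from Jak2, Stat5a and Stat5b was not tested.
Adaptors and kinases downstream of the receptor had a median of −0.55 over 20 genes, with 5 higher and 15 lower means. Plcg1, a phospholipase of receptor signaling, was at −0.79 (standard error 0.25) and Tec, a kinase of hematopoietic cells, at −1.10 (standard error 0.39). The groups did not overlap for either, or after centring, which left Plcg1 at −0.52 and Tec at −0.83. They were the only genes of the 20 that lay entirely below, where 6.57% of all genes did. The second tested probe set of Plcg1 was at 0.16. At the brightest probe sets, only Map2k2, a kinase that activates ERK, was higher past the nominal threshold on this list (0.73, standard error 0.28). Its second tested probe set was at 0.35 (unadjusted p = 0.36 in limma). Plcg1, Tec, Plcg2 and Vav1 were lower past the threshold. Foxo3, a transcription factor that AKT holds in the cytoplasm, was the 1 gene of the 20 that was higher in each RST mouse than in any control mouse, where 2.37% of all genes were (0.56, standard error 0.27, limma adjusted p = 0.38). The other tested probe sets of Foxo3 were at 0.62 and 1.06, past the nominal threshold (unadjusted p = 0.038 and 0.039 in limma).
Among 32 negative regulators and trafficking genes, 7 had a higher and 25 a lower mean, with a median of −0.33 and 4 lower past the nominal threshold. Snx9, a sorting nexin of endocytosis, was at −1.33 (standard error 0.30), the smallest unadjusted p of the lists at 9.3e-04 (limma adjusted p = 0.32), and at −1.06 after centring. The second tested probe set of Snx9 was at −0.61 (standard error 0.40, unadjusted p = 0.15 in limma). Ptprc, the leukocyte phosphatase CD45, was at −0.65 (standard error 0.26) and at −0.39 after centring. The remaining pair past it were Sh2b1, an adaptor of JAK2 (−0.68), and Ptpn6, the phosphatase SHP-1 (−0.70). The RST mice lay below all control mice for Snx9, Ptprc, Sh2b1 and Btrc, or 4 of 32 genes against 6.57% of all genes. After centring this held for Snx9 alone of these 4.

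Of 24 other target genes of STAT5 or erythropoietin, 10 had a higher and 14 a lower mean, where 32.4% of all genes had a higher mean, and the median was −0.30. Past the nominal threshold 1 was higher and 2 were lower, beside 2.80% and 12.8% of all genes. Bcl2l1, which encodes the survival protein BCL-XL of maturing erythroblasts, had the largest difference in either direction on this list. It was at 9.62, 9.23, 8.38 and 10.18 in control mice 1 to 4, and RST mice 1 to 4 were at 10.92, 11.06, 9.97 and 10.77. Only RST mouse 3 fell within the control range. The difference was 1.33, or 2.51-fold (standard error 0.40, unadjusted p = 0.0059 and adjusted p = 0.32 in limma; two-sided exact permutation p = 0.057). The other probe sets of Bcl2l1 gave 0.96 and 1.53, and in both the RST mice lay above the control mice, as for 2.23% of all tested probe sets. They measure the same gene in the same mice and are not independent of the brightest. The difference was 1.30 at the brightest after quantile normalization and also without RST mouse 4, and 1.59 after centring. Tnfrsf13c, a survival receptor of B cells, was at −0.95 (standard error 0.33), and Egr1, an immediate early factor, was the third gene past the nominal threshold at −0.78 (standard error 0.35).

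**Figure D4:**
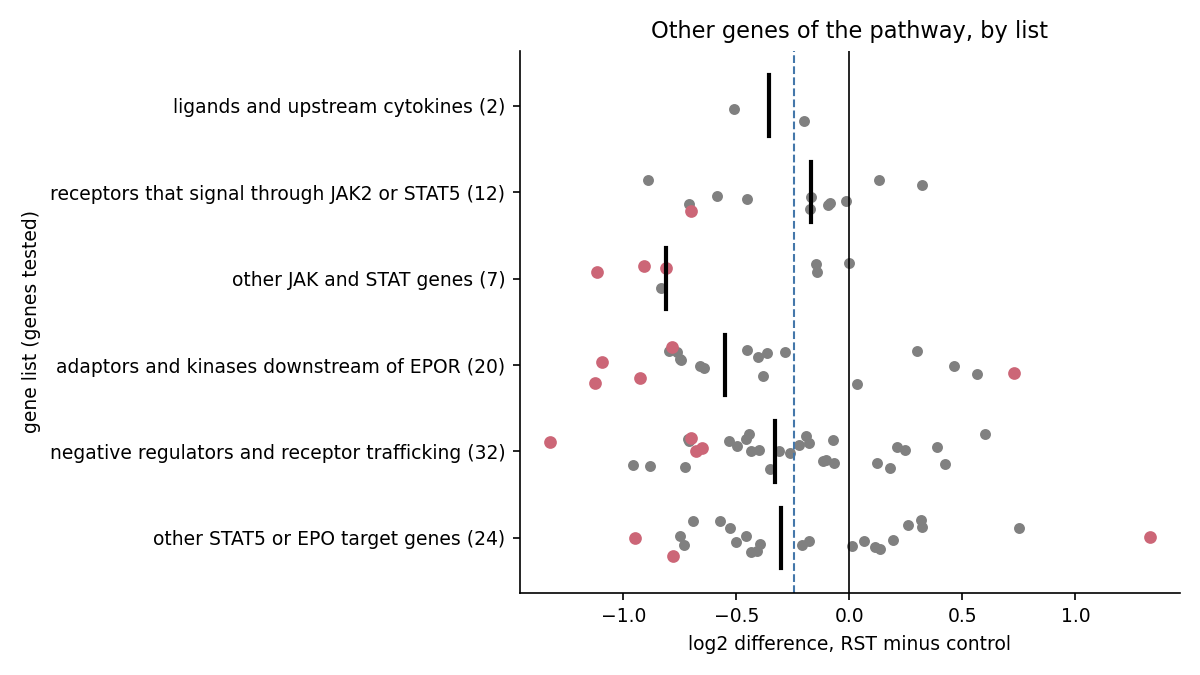
Log2 difference (RST minus control) of 6 lists of pathway genes, 1 point per gene at its brightest tested probe set, red where the nominal threshold was passed; black bars are list medians and the dashed line is the median of all genes at −0.24. Bcl2l1 is the point farthest to the right, at 1.33, and Snx9 the one farthest to the left, at −1.33.

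Markers of the cells in blood moved with the groups beside these values. The summed linear level of 13 measured erythroid genes (of 20 listed) was 37870 to 48320 in control and 51750 to 55000 in RST mice (two-sided exact permutation p = 0.029, n = 4 per group). In this sum RST mouse 4 lay above every control mouse. A higher mean was found for 12 of the 13. The brightest, Alas2 (0.10, standard error 0.15) and Bpgm (0.13, standard error 0.16), differed by less than their standard errors. The sum of 11 measured B cell genes (of 12 listed), led by Cd79b (−1.09) and Ms4a1 (−0.99), was 3131 to 6393 in control and 2037 to 2538 in RST mice. All 11 had a lower mean. For 8 measured NK cell genes (of 9 listed), led by Gzma (−0.94) and Nkg7 (−0.62), the sum was 2102 to 3449 and 1383 to 1906. Of the 8, 7 had a lower mean and 1, Prf1, a higher one (0.19, standard error 0.29). For 9 eosinophil and basophil genes, led by Mcpt8 (−0.58) and Ms4a2 (−0.45), the sum was 156 to 405 and 85.1 to 113. All 9 had a lower mean. Prg2, the brightest of them in control mice (mean 5.51), had the largest difference (−2.80, standard error 0.98). The sum of 11 T cell genes was 2043 to 3004 in control and 1028 to 2059 in RST mice, a log2 difference of −0.68 with a lower mean for all 11 (two-sided exact permutation p = 0.057), and RST mouse 2 lay just above control mouse 3. Neutrophil, monocyte and platelet sums also overlapped. The log2 difference was −0.58 for neutrophils, with 5 higher and 5 lower means (two-sided exact permutation p = 0.20). It was −0.53 for monocytes, with 2 higher and 7 lower means (two-sided exact permutation p = 0.11). For platelets it was 0.048, with 9 higher and 2 lower means (two-sided exact permutation p = 0.71). Of 5 genes of granulocyte progenitors, only Prtn3 passed the filter, and Kit, a receptor of blood progenitors, did not pass it. The part of cell composition in the differences of Bcl2l1, Il7r, Stat4 or any of the 9 genes was not tested.

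The 5 genes whose centred levels followed Epor most closely over the 8 arrays were Gm15886 (Pearson r = 0.93), Ppp1r15a (0.92), Klhl25 (0.92), Med21 (0.91) and Wdfy1 (0.91). They are the highest of 11762 genes set against a dim probe set in 8 mice, so these values describe a ranking and carry no test. Differences between RST and control mice ran from −0.14 (Med21) to 0.44 (Gm15886) among them.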

How the data were processed

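RNA of whole blood from 4 RST and 4 control mice was measured on 1 array per mouse. The authors deposited log2 expression per probe set, background-corrected, normalized and summarized (GSRMA in Partek per the methods; the submitters' processing notes name RMA, Partek and version 1.2.0.20 of Affymetrix Expression Console). The log2 scale was taken from these tools and the range of the values. Scanner values, presence calls and slide or scan date were not used here.

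The 64 control probe sets were left out, and the 25084 that exceeded the array median in 2 or more of the 4 mice of either group entered lmFit and eBayes of limma 3.58.1 (R 4.3.3), with Benjamini-Hochberg adjustment over all 25084. This filter stands in for presence calls. Probe sets below it were read from a fit of all probe sets. Symbols of other genes were updated through the Entrez identifier (GRCm38.p6 table). A gene was represented by its brightest tested probe set. Exact permutation tests enumerated 4 mice against 4, which allows no two-sided p below 0.029. The fit was tested on simulated data. Intervals are 95% intervals from limma.

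The 9 genes and the lists were chosen with earlier results of these data known. Named are the 9 genes, the 2 genes of each list with the smallest p, the 5 genes most like Epor and the 2 brightest markers of lists that parted the groups. Stat2, Plcg2, Vav1, Map2k2, Foxo3, Sh2b1, Ptpn6, Btrc, Egr1, Crkl, Dusp4, Elob, Dusp1, Fos, Prf1 and Prg2 were named after their values were seen. The list of receptors also held Tslp, a cytokine, which was below the filter, and Gab2, Irs2 and Il2ra stood on 2 lists each. Alternatives changed the filter, normalization, prior, test, weights, a replicate block and each mouse in turn. Plots used matplotlib 3.10.9 (Python 3.11.15).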

Additional observations from a re-analysis of the deposited data

Results flagged for a closer look

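In 5 of 42 sets of 4 mice (21 probe sets, 2 groups), 1 mouse stood apart by Dixon's criterion, which chance meets in about 1 of 20 sets. RST mouse 4 was low for the brightest probe sets of Stat5b (5.49, next mouse 6.86) and Socs2 (2.22, next mouse 5.40). It was high, at 3.35 against 2.23 for the next mouse, at a Socs2 probe set below the filter. RST mouse 1 was high at another dim Socs2 probe set (3.07, next mouse 2.03) and at the dim probe set of Podxl (2.37, next mouse 1.78). The last 3 probe sets did not pass the filter. RST mouse 4 also had the lowest tested median of the 8 arrays.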

How the results depend on the processing

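No member passed an adjusted p under 0.05 under any alternative run (lowest 0.12, for Podxl with array weights), and of 164 member values under alternatives 136 kept their direction and 28 did not. Stat5a, Pim1 and Podxl kept theirs throughout. Other directions turned, all for differences not called. Jak2 became 0.090 after quantile normalization, 0.24 after centring, 0.0091 with array weights, 0.047 without control mice 1 and 2, and 0.17 as the mean of its probe sets. Stat5b became 0.15 after quantile normalization, 0.091 after centring and 0.44 without control mice 1 and 2. Epor was at 0.18 after centring, and Socs3 at 0.053 after centring, 0.28 without control mice 1 and 2 and 0.064 as the mean of its probe sets. Cish was at −0.0012 when arrays were shifted by their control probe sets, and Socs2 at −0.094 as the mean of its probe sets. That mean includes the Socs2 probe set that passed the filter through control mice alone. Leaving out 1 mouse gave ranges of −0.24 to 0.095 for Epor, −0.13 to 0.040 for Jak2, −0.58 to −0.33 for Stat5a, −0.45 to 0.20 for Stat5b, −0.050 to 0.41 for Cish, −0.11 to 1.12 for Socs2, −0.86 to 0.30 for Socs3, 0.059 to 0.21 for Pim1 and 0.41 to 0.86 for Podxl. The cause of these turns was not tested.
The count of member probe sets with an unadjusted p under 0.05 and over 1.5-fold was 0 of the 14 tested. It was 2 after quantile normalization, 3 after centring, 3 with array weights, 1 without control mice 1 and 2, and 0 to 2 without 1 mouse. Of all 25084 tested probe sets, 3337 passed these limits in the main fit, 2989 after quantile normalization and 3270 after centring. The counts over all tested probe sets in the other fits follow. The trended and robust prior called 35 probe sets of 25084 against 0. The unadjusted count of 3337 became 5539 with array weights, 884 without control mice 1 and 2, and 1742 (without control mouse 1) to 4952 (without RST mouse 2) without 1 mouse; without control mouse 2 it was 1765. The ordinary test of a pair of groups, equal to the one-way analysis of variance named in the methods, gave 2264, and 0 after Benjamini-Hochberg adjustment. A replicate block gave 4234 and no adjusted call. No pairing of mice by number was seen, though this check cannot exclude it. Deviations of same-numbered mice correlated at −0.24, 0.42, 0.046 and 0.20, and those of other numbers at −0.54 to 0.52. Of 8 mice, 1 correlated best with its own number. With a filter above the array median on all 8 arrays, Epor and Socs2 had no value. The number of arrays limits precision.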
